A study of Mus musculus with 8 samples.

Results

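Ifng, Tnf, Lta, and Csf2 encode IFN-γ, TNF, lymphotoxin-α, and GM-CSF, the effector cytokines of type 1 T cell responses. They are 4 of the 20170 genes in the count table, picked by name with earlier results of these data known, and all 4 were detected. IFN-γ activates macrophages and raises antigen presentation, TNF and lymphotoxin-α are related ligands of the TNF family that drive inflammation and lymphoid organization, and GM-CSF recruits and activates myeloid cells. Their mRNAs are induced when a T cell is triggered through its antigen receptor and CD28, and these mRNAs are kept short-lived by AU-rich elements in the 3′ untranslated region, which proteins of the Zfp36 family bind.

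The study examined the role of SDHA, a subunit of mitochondrial complex II, in T cells by sequencing RNA from single T cells, purified magnetically from spleen. WT cells were compared with SDHA-KO cells, which came from Sdha fl/fl CD4-Cre mice, and all mice of the study were 8 to 12 weeks old. CD4-Cre is active in thymocytes before the CD4 and CD8 lineages part, so both lineages are subject to the deletion, which was not tested in each cell here. The study names C57BL/6 mice as the source of WT T cells for sequencing, and whether these carried a floxed allele was not given in the sources used here. Cells of each genotype were cultured alone (unstimulated) or with soluble anti-CD3 at 5 μg/mL and anti-CD28 at 2.5 μg/mL for 48 hours (stimulated), and dead cells were removed. This gave 4 groups of 2 libraries. The labels number the libraries as replicates without stating separate mice, so p values measure the spread between these libraries, which may be technical.

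The 8 libraries held 12846 cells, which the authors divided by cluster into CD4 and CD8 classes and into subsets. Each class of a library held from 325 to 1315 cells and from 3640136 to 34087903 unique molecular identifiers (UMIs, one per captured mRNA molecule). Stimulated SDHA-KO cells were deeper than WT cells, with medians of 23669 and 24651.5 UMIs per cell against 14753 and 14464 in the CD4 class, and of 30662 and 29912 against 13151.5 and 13265 in the CD8 class. Of 12823 distinct cell barcodes, 23 occurred in more than 1 library. Sdha itself was lower in SDHA-KO libraries of both classes and both states, and by the least in stimulated CD8 cells (76.2 and 74.9 counts per 1000000 UMIs in WT, 53.3 and 50.5 in SDHA-KO). Levels below are UMIs summed over the cells of a class in 1 library, as counts per 1000000 UMIs (CPM) after TMM scaling unless called raw. In such sums, fewer cells with a transcript and less transcript per cell cannot be told apart, so detection per cell is given separately. An adjusted p under 0.05 in edgeR's quasi-likelihood test, with Benjamini-Hochberg adjustment over all genes tested, was called. Whether libraries of 2 groups overlap is given as a description only. With 2 libraries against 2, groups without overlap reach no less than p = 0.33 in an exact two-sided permutation test. The share of all genes without overlap was not counted.

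The genes lie on 3 chromosomes of the mouse genome (GRCm38). Ifng spans chr10:118441046-118445892 on the plus strand and Csf2 chr11:54247271-54249667 on the minus strand, where Il3 lies 15635 bases away. Tnf (chr17:35199381-35202007) and Lta (chr17:35203165-35205351) are neighbours on the minus strand with 1157 bases between them, and Ltb, the third gene of this TNF-family cluster, lies 3060 bases beyond Tnf. Motifs of AU-rich elements were counted in the members, over the whole 3′ untranslated region without a background and at the transcript end with one. The ATTTA pentamer occurred 6 times in the 631 bases of the 3′ untranslated region of Ifng, 8 times in the 764 bases of Tnf, 3 times in the 572 bases of Lta, and 9 times in the 317 bases of Csf2. The nonamer TTATTTATT occurred 0, 5, 1, and 4 times in the same order, on the transcript strand. In the last 300 bases of the transcript, the 9 pentamers of Csf2 were matched by 0.0218% of 13776 mouse transcript ends of that length, the 3 of Lta by 5.38%, the 2 of Tnf by 16.1%, and the single one of Ifng by 44.8%. The most pentamer-rich stretch of 30 bases is shown for each member, because AU-rich elements are what the turnover factors described further on bind (RNA given as DNA, 5′ to 3′, ATTTA in capitals, GENCODE vM21).
Ifng, chr10:118445330-118445359, plus strand: aacctATTTAttaatATTTAaaactATTTA
Tnf, chr17:35199679-35199708, minus strand: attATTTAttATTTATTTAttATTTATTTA
Lta, chr17:35203408-35203437, minus strand: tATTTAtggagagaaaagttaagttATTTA
Csf2, chr11:54247329-54247358, minus strand: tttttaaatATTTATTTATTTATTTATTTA
Pentamers overlapped into a continuous run in Csf2 and into blocks in Tnf, and stood apart in Ifng and Lta.

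Promoters of Ifng and Tnf are shown because Ifng responded strongly and Tnf weakly to stimulation in CD8 cells (RefSeq, GRCm38.p6, the 150 bases before the transcript start, 5′ to 3′ on the gene's strand, with TATAAA and the NFAT core GGAAA on either strand in capitals).
Ifng, chr10:118440896-118441045, plus strand: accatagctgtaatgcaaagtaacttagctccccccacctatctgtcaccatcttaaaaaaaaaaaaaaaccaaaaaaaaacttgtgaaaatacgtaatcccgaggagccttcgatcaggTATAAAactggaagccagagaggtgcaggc
Tnf, chr17:35202008-35202157, minus strand: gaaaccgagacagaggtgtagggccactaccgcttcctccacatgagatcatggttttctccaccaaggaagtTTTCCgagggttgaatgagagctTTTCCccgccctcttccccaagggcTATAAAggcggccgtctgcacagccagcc
In RefSeq windows of 300 bases around the transcript start, GGAAA on either strand occurred 3 times for Tnf, Lta, and Csf2 and once for Ifng, and 61.3% of 27025 windows held it. TATAAA occurred in those of Ifng, Tnf, and Lta and in 14.2% of all windows. TGANTCA occurred in none of the 4 windows and in 7.93% of all. Both strands were searched and overlapping matches counted. These matches describe the sequence only.

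Before stimulation the cytokine mRNAs were sparse and showed no called difference between genotypes. In CD4 cells, Ifng was at 3.21 and 24.7 CPM (WT) versus 5.21 and 7.17 CPM (SDHA-KO). The high WT library owed its level to a single cell that held 148 of its 165 Ifng UMIs, and without that cell it stood at 2.34 raw CPM. Tnf, which was the member most widely detected at rest, was at 23.6 and 24.9 CPM (WT) versus 22.4 and 16 CPM (SDHA-KO) in CD4 cells. Lta was at 7.70 and 7.19 CPM (WT) versus 9.77 and 6.98 CPM (SDHA-KO). The genotypes overlapped for Ifng and Lta and did not for Tnf. In CD8 cells, where the genotypes overlapped for Ifng and Tnf and not for Lta, Ifng was at 2.86 and 0.892 CPM (WT) versus 3.60 and 2.37 CPM (SDHA-KO), Tnf at 11.1 and 15.2 against 8.39 and 15.4 CPM, and Lta at 2.57 and 2.23 against 7.50 and 2.67 CPM. Csf2 was at or near the floor, with 1 UMI in WT and 7 UMIs in SDHA-KO CD4 cells and 0 and 3 UMIs in CD8 cells. The edgeR test called 1.10% of all genes tested between the genotypes in unstimulated CD4 cells and 0.947% in CD8 cells, and 0 of the 4 members in either class. None of the 4 had an unadjusted p under 0.05 either, which 2282 of 14264 genes had in CD4 and 1852 of 13095 in CD8 cells. The fitted log2 differences (SDHA-KO over WT) were -1.19 ± 0.75 (SE) for Ifng, -0.34 ± 0.19 for Tnf, and 0.16 ± 0.29 for Lta in CD4 cells. In CD8 cells they were 0.76 ± 0.95, -0.16 ± 0.37, and 1.09 ± 0.67. With no filter on low counts, Ifng in unstimulated CD4 cells was called lower (-1.21, adjusted p = 0.0264 in edgeR), and without the library that held the single high cell the sign turned (0.97, adjusted p = 0.779). DESeq2 and limma called 0 of the 3 members given here in either class.

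Stimulation raised the members in WT cells to different extents. In WT CD4 cells, Lta rose from 7.70 and 7.19 CPM to 137 and 139 CPM, a log2 difference of 4.21 ± 0.21 (SE, n = 2 libraries a group, adjusted p = 1.40e-08 in edgeR). Ifng rose to 32.7 and 49.9 CPM (1.54 ± 0.55, adjusted p = 0.0274) and Tnf to 33.2 and 35.2 CPM (0.50 ± 0.17, adjusted p = 0.0213). The resting side of the Ifng value includes the library with the single high cell, which stood at 2.34 raw CPM without that cell. With libraries left out, the Ifng value ranged from 0.76 to 3.71, so its size is uncertain. Csf2 reached 2.59 and 3.83 CPM, with 189 UMIs against 1 UMI, a ratio of raw levels of 48.9 (95% counting interval 8.66 to 1940). Every stimulated WT library lay above every unstimulated one for all 4 members, which is a description only. All 4 were called, where 66.3% of all genes tested were called. The Ifng call was lost without 1 of the 2 libraries in either group (0.76 without unstimulated WT replicate 1 and 1.17 without stimulated WT replicate 2, adjusted p = 0.204 and 0.127), and the Tnf call without any of the 4 (0.42 to 0.56). The Csf2 call was lost without either unstimulated library (adjusted p = 0.0728 and 0.0552).

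In WT CD8 cells the response was steeper. Ifng rose from 2.86 and 0.892 CPM to 768 and 1235 CPM (9.15 ± 0.36, adjusted p = 2.29e-09 in edgeR) and Lta from 2.57 and 2.23 CPM to 170 and 167 CPM (6.14 ± 0.32, adjusted p = 1.94e-08). Tnf rose to 27.8 and 29.2 CPM (1.09 ± 0.27, adjusted p = 0.00363), a call that was lost without unstimulated WT replicate 1 (0.93, adjusted p = 0.0531) and among cells under 10% mitochondrial UMIs (0.65, adjusted p = 0.0592). Csf2 reached 6.04 and 14.8 CPM, with 529 UMIs over both libraries against 0 in unstimulated cells, which is at least 39.0-fold higher if 3 UMIs are taken as the most that 0 over the group allows. All 4 members were called, against 65.7% of all genes tested. Compared directly within the stimulated WT libraries, where 23.5% of genes were called, CD8 cells exceeded CD4 cells in Ifng (4.65 ± 0.18, adjusted p = 4.49e-06), Csf2 (1.73 ± 0.49, adjusted p = 0.0381), and Lta (0.35 ± 0.04, adjusted p = 0.00111). The difference in Tnf was not called (-0.21 ± 0.07, adjusted p = 0.0656).

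**Figure D1:**
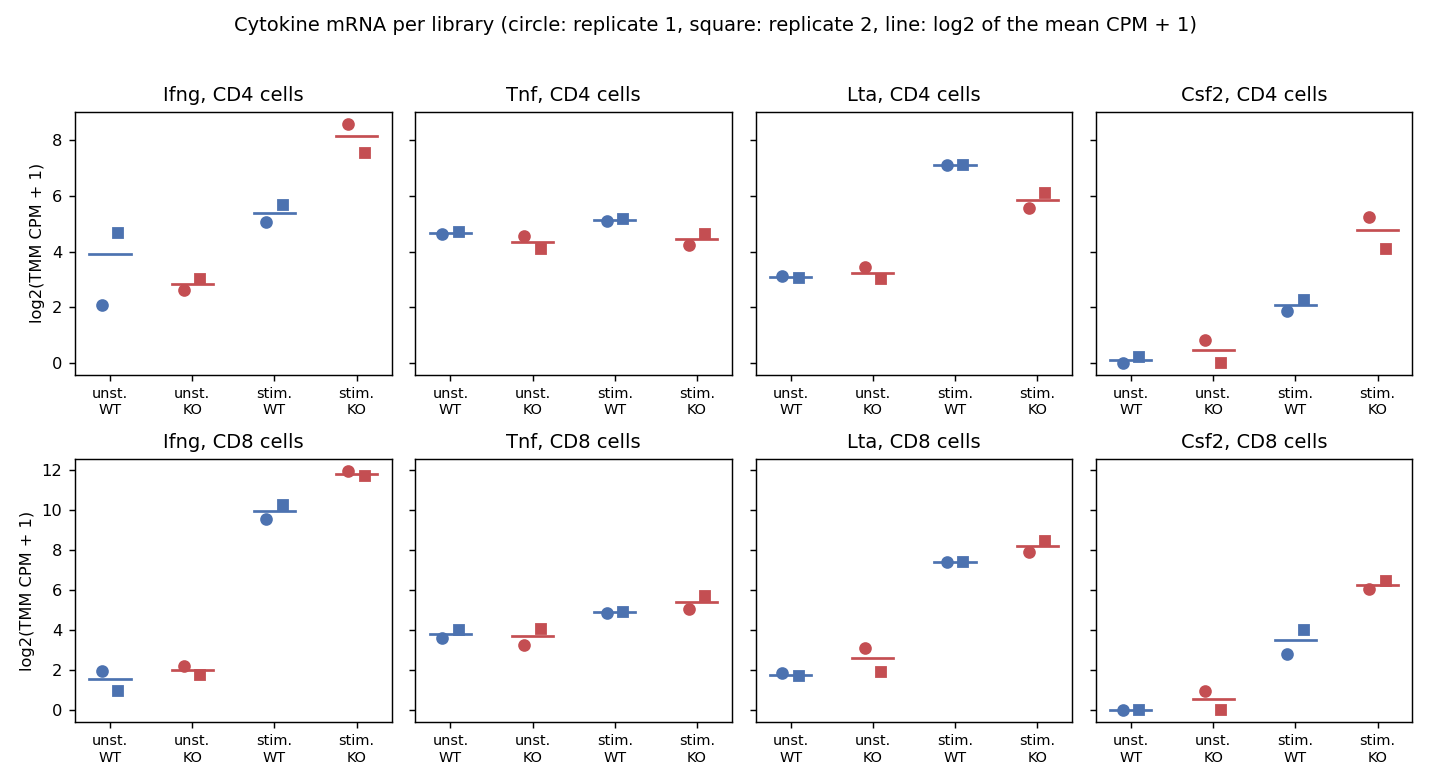
Level of each cytokine in every library, as log2(TMM CPM + 1), in CD4 cells (top) and CD8 cells (bottom) of the 4 groups, with circles for replicate 1, squares for replicate 2, blue for WT, red for SDHA-KO, and a line at the group mean. Stimulated SDHA-KO libraries lie above WT for Ifng and Csf2 in both classes, and below WT for Lta (46.4 and 67.6 against 137 and 139 CPM) and Tnf in CD4 cells only.

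In stimulated CD4 cells SDHA deficiency split the members, with Ifng and Csf2 higher and Lta and Tnf lower than in WT. Ifng was at 32.7 and 49.9 CPM (WT) versus 384 and 186 CPM (SDHA-KO), a log2 difference of 2.78 ± 0.41 (6.87-fold, adjusted p = 0.000336 in edgeR). Csf2 was at 2.59 and 3.83 CPM (WT) versus 37.4 and 16.1 CPM (SDHA-KO) (3.04 ± 0.39, 8.24-fold, adjusted p = 0.000117). In both, the SDHA-KO libraries were all above the WT libraries, and replicate 1 was the higher of the SDHA-KO pair. Lta was at 137 and 139 CPM (WT) versus 46.4 and 67.6 CPM (SDHA-KO), 2.42-fold lower (-1.27 ± 0.14, adjusted p = 5.14e-05). Tnf was at 33.2 and 35.2 CPM (WT) versus 17.8 and 23.8 CPM (SDHA-KO), 1.64-fold lower (-0.71 ± 0.15, adjusted p = 0.00259). Both SDHA-KO libraries lay below both WT libraries. All 4 members were called, against 43.2% of all genes tested in this comparison.

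In stimulated CD8 cells all 4 members were higher in SDHA-KO, where 50.4% of all genes tested were called. Ifng was at 768 and 1235 CPM (WT) versus 3975 and 3352 CPM (SDHA-KO) (1.87 ± 0.18, 3.66-fold, adjusted p = 1.25e-05 in edgeR). Csf2 was at 6.04 and 14.8 CPM (WT) versus 64.5 and 85.7 CPM (SDHA-KO) (2.84 ± 0.30, 7.17-fold, adjusted p = 3.70e-05). Lta was at 170 and 167 CPM (WT) versus 241 and 352 CPM (SDHA-KO) (0.81 ± 0.15, 1.76-fold, adjusted p = 0.00111). Tnf was at 27.8 and 29.2 CPM (WT) versus 32.7 and 50.3 CPM (SDHA-KO) (0.53 ± 0.18, 1.45-fold, adjusted p = 0.0314). The libraries of the genotypes did not overlap for any member, which is a description only. The Tnf call rested on SDHA-KO replicate 2, without which the difference was 0.18 (adjusted p = 0.33), and it was also lost with no composition scaling (0.47, adjusted p = 0.0505).

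The CD8 sums of SDHA-KO libraries held many cells with a UMI of Trdc, the constant region of the T cell receptor δ chain, which marks γδ T cells. In stimulated CD8 cells these were 31 and 41 cells in WT (3.67% and 4.92%) and 302 and 222 cells in SDHA-KO (59.1% and 56.1%). The summed raw level of the 7 γδ markers (Trdc, Trdv4, Trgv2, Tcrg-C1, Tcrg-C2, Tcrg-C4, and Sox13) was 22.8 and 26.5 CPM in WT and 288 and 289 CPM in SDHA-KO, with Trdv4 at 0 in 1 WT library. Cd8a was at 171 and 182 raw CPM in WT and at 87.2 and 119 in SDHA-KO. In stimulated SDHA-KO libraries, Sdha was at 60.0 and 55.9 raw CPM in CD8 cells and at 28.9 and 28.6 in CD4 cells. Sdha levels of cells with and without a Trdc UMI are not reported here, and whether these cells carried the deletion was not tested directly. The 7 NK markers summed to 64.7 and 58.4 raw CPM in WT and to 95.8 and 114 in SDHA-KO, mostly from Klrk1, with Klra8 at 0 in all 4 libraries and Ncr1 at 0 in 3. The 6 B cell markers summed to 53.7 and 50.0 in WT and to 344 and 64.1 in SDHA-KO, and Pax5 was at 0 in 3 of the 4 libraries. The 7 myeloid markers summed to between 3.97 and 7.62, with Lyz2 and S100a8 at 0 in all 4. The part of the NK, B cell, and myeloid transcripts in the CD8 results was not tested.

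Among CD8 cells without a Trdc UMI, SDHA-KO still exceeded WT in Ifng (1.52 ± 0.18, adjusted p = 1.32e-05 in edgeR) and Csf2 (2.87 ± 0.31, adjusted p = 1.52e-05), and neither Lta (0.11 ± 0.12, adjusted p = 0.471) nor Tnf (0.32 ± 0.25, adjusted p = 0.298) was called. These sums rest on 209 and 174 SDHA-KO cells. A stricter class of cells with a Cd8a or Cd8b1 UMI and no Cd4 or Trdc UMI gave 1.64, 2.82, 0.05, and 0.35 for Ifng, Csf2, Lta, and Tnf, with the same calls.

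Within the stimulated SDHA-KO libraries, CD8 cells with a Trdc UMI held more Lta than those without, at 324 and 505 CPM against 185 and 234 CPM (0.96 ± 0.13, adjusted p = 0.00266 in edgeR, 16.5% of genes called). This was the one call among the 4 members. Ifng stood at 4845 and 4417 CPM with and at 3875 and 2817 CPM without a Trdc UMI (0.49 ± 0.47, adjusted p = 0.539), and Csf2 at 73.0 and 86.2 against 72.2 and 112 CPM (-0.18 ± 0.12, adjusted p = 0.360). In WT, 0 members were called in edgeR (0.311% of genes called), and Lta and Csf2, 2 of the 4, had an unadjusted p under 0.05, as had 1363 of 12538 genes. The difference between the genotypes in this contrast was called for none of them (1.16% of genes called), and an unadjusted p under 0.05 was found for Lta alone and for 2069 of 12538 genes. Median depth in SDHA-KO CD8 cells was 29193 and 30121.5 UMIs with and 31524 and 29907.5 UMIs without a Trdc UMI.

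The change from WT to SDHA-KO differed between the classes for 3 of the 4 members, where 22.4% of all genes differed. For Lta the effect in CD8 cells exceeded that in CD4 cells by 2.07 ± 0.06 on the log2 scale (adjusted p = 1.35e-05 in edgeR), and for Tnf by 1.23 ± 0.10 (adjusted p = 0.000471). For both, SDHA-KO lay below WT in CD4 cells and above it in CD8 cells, without overlap. The rise in CD8 cells was called for neither once cells with a Trdc UMI were left out. Over the alternatives tried, Trdc cells left out among them, the class difference ranged from 1.60 to 2.31 for Lta and from 1.01 to 1.54 for Tnf. For Ifng the rise was smaller in CD8 than in CD4 cells (-0.84 ± 0.22, adjusted p = 0.0316), and without the top 1% of cells for Ifng the sign turned (0.37, adjusted p = 0.208). The rise in Csf2 did not differ detectably (-0.13 ± 0.60, adjusted p = 0.901). It depended on single libraries, since the difference was called at 0.70 without SDHA-KO replicate 1 (adjusted p = 0.0389) and at -0.92 without SDHA-KO replicate 2 (adjusted p = 0.00807). Within stimulated SDHA-KO libraries, CD8 cells exceeded CD4 cells in all 4 members (47.3% of genes called), by 3.81 ± 0.17 for Ifng, 1.03 ± 0.07 for Tnf, 2.42 ± 0.04 for Lta, and 1.60 ± 0.31 for Csf2.

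**Figure D2:**
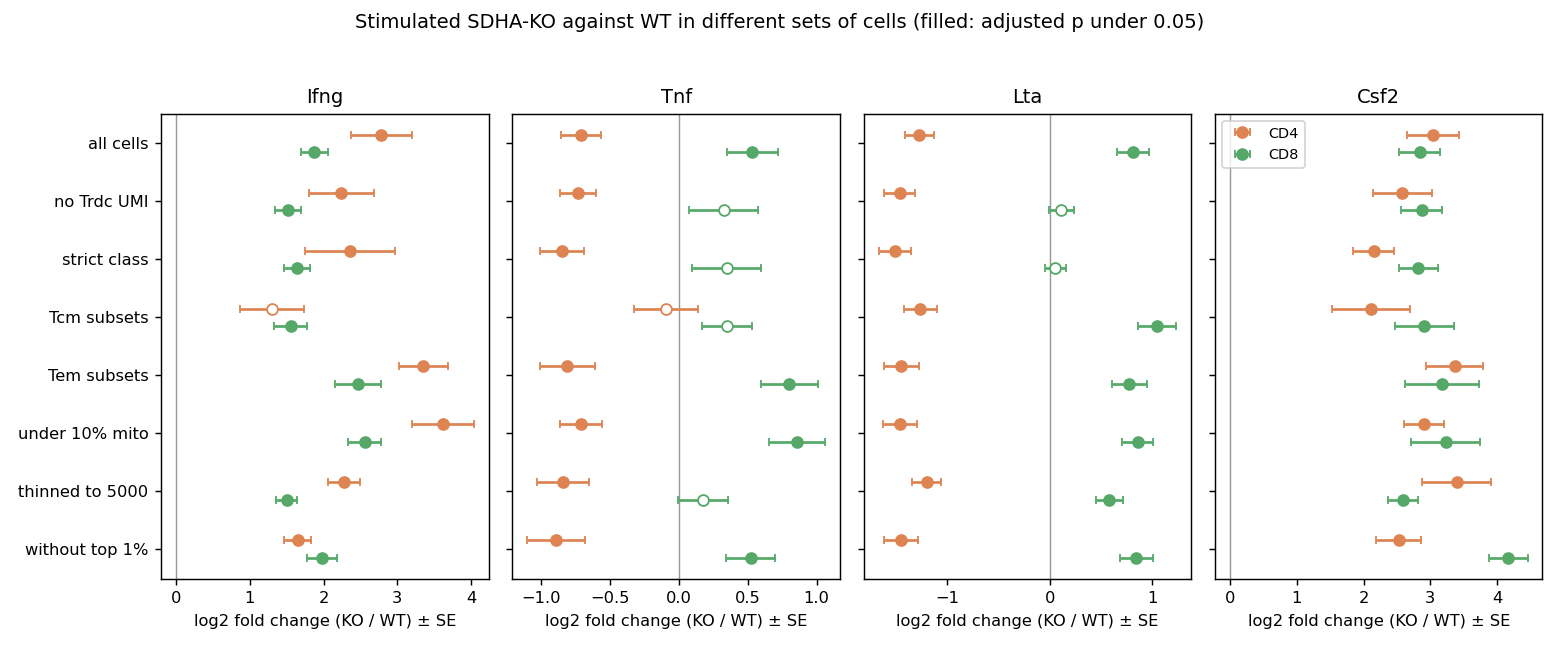
Log2 fold change ± SE of SDHA-KO over WT in stimulated CD4 (orange) and CD8 (green) cells, refitted on different sets of cells; filled points have an adjusted p under 0.05 in edgeR. Lta is lower in CD4 cells in every set, and its difference in CD8 cells is not called in the sets without Trdc cells (0.11 and 0.05).

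SDHA-KO cells also answered stimulation, and the change from rest differed between genotypes for Ifng and Lta in CD4 cells. In SDHA-KO CD4 cells, stimulation raised Ifng by 5.51 ± 0.56, Lta by 2.78 ± 0.20, and Csf2 by 6.21 ± 0.68 on the log2 scale, and Tnf was not called (0.13 ± 0.17, adjusted p = 0.512 in edgeR), where 69.8% of genes were called. Lta rose to 46.4 and 67.6 CPM, below the WT libraries, while Tnf stayed within 16 to 23.8 CPM over both states. Set against that in unstimulated cells, the effect of SDHA-KO in stimulated cells differed by 3.97 ± 0.86 for Ifng (adjusted p = 0.00804) and -1.43 ± 0.32 for Lta (adjusted p = 0.00991) in CD4 cells, where 21.4% of genes were called. The Ifng value fell to 1.82 (adjusted p = 0.370) without unstimulated WT replicate 2, the library with the single high cell, and to 1.27 (adjusted p = 0.417) without the top 1% of cells. The Lta value was -1.38 (adjusted p = 0.0618) without that library and -1.18 (adjusted p = 0.0632) without unstimulated SDHA-KO replicate 1. In SDHA-KO CD8 cells, stimulation raised Ifng by 10.26 ± 0.34, Tnf by 1.79 ± 0.28, and Lta by 5.87 ± 0.28, and Csf2 went from 3 to 2757 UMIs, a ratio of raw levels of 201 (95% counting interval 68.7 to 976), where 68.2% of genes were called. The difference between states in CD8 cells was called for 0 of the 4 members in edgeR, where 23.8% of genes were called, and 0 had an unadjusted p under 0.05, against 4662 of 13095 genes.

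Ifng in SDHA-KO CD4 cells was held mostly by few cells. The top 1% of CD4 cells for Ifng held 48.4% and 59.9% of its UMIs in WT and 81.5% and 75.7% in SDHA-KO. In SDHA-KO these were 12 and 13 cells, with up to 3348 and 1156 Ifng UMIs in 1 cell, against at most 93 and 453 in WT. Of these cells, 9 in each SDHA-KO library belonged to the subset Tem7, which made up 8.36% and 7.87% of the class, and 7 in each held a Trdc UMI, against 10.1% and 8.64% of the class. Without the top 1% of cells for Ifng, the difference in CD4 cells was 1.65 ± 0.18 (adjusted p = 4.75e-05 in edgeR), and without cells that had a Trdc UMI it was 2.24 ± 0.44 (adjusted p = 0.00183). For Csf2, the top 1% of CD4 cells held 69.0% and 61.0% of its UMIs in WT and 78.3% and 67.0% in SDHA-KO, which overlapped.

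Detection was compared after each cell was thinned to 5000 UMIs, which left out from 2 to 86 cells per stimulated library and class, mostly CD4 cells of SDHA-KO. With 2 libraries against 2, the smallest p of an exact two-sided permutation test is 0.33, and the shares are given untested. Ifng was detected in 17.4% and 17.7% of WT and in 21.7% and 11% of SDHA-KO CD4 cells, and in 39.7% and 43.8% against 58.0% and 32.9% before thinning. The shares of the genotypes overlapped in both cases. CD4 cells with at least 5 Ifng UMIs after thinning were 0.59% and 0.53% of WT and 2.45% and 2.25% of SDHA-KO cells, which did not overlap. As a background, unstimulated CD4 cells had an Ifng UMI in 0.90% to 1.70% of cells.

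Lta and Tnf in CD4 cells behaved differently, with fewer positive cells in SDHA-KO. After thinning, Lta was detected in 35.1% and 37.2% of WT and in 15.5% and 20.3% of SDHA-KO CD4 cells (62.9% and 64.9% against 34.7% and 45.9% before thinning, although SDHA-KO cells were deeper). Tnf was detected in 15.3% and 19.9% of WT and in 7.81% and 10.8% of SDHA-KO cells (43.2% and 44.9% against 23.2% and 31.2% before thinning). The unstimulated background was 2.92% to 4.62% for Lta and 5.50% to 9.56% for Tnf, so that Tnf in stimulated SDHA-KO CD4 cells was near the level at rest. Csf2 was found in 1.66% and 1.37% of WT and 3.76% and 3.92% of SDHA-KO CD4 cells after thinning. CD4 cells with none of the 4 transcripts after thinning made up 45.4% and 43.8% of WT and 62.4% and 64.7% of SDHA-KO cells.

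In CD8 cells Ifng was detected in more cells than in CD4 cells of the same libraries. After thinning it was found in 40.5% and 42.5% of WT and in 62.5% and 59.7% of SDHA-KO cells (60.5% and 66.7% against 84.0% and 77.5% before thinning), and its top 1% of cells held 33.5% and 27.0% against 24.6% and 23.8% of its UMIs. Cells with at least 5 Ifng UMIs after thinning were 13.9% and 15.7% of WT and 39.3% and 35.6% of SDHA-KO CD8 cells. Csf2 was found in 2.26% and 1.92% of WT and in 9.27% and 9.49% of SDHA-KO CD8 cells after thinning, and its top 1% of cells held 77.2% and 82.9% against 57.5% and 49.1%. Both transcripts were found in more CD8 cells in SDHA-KO, with no overlap between the genotypes. These shares are over the whole class, Trdc cells included, and those of cells without a Trdc UMI are not given here for Ifng and Csf2. Unstimulated CD8 cells had an Ifng UMI in at most 1.27% of cells, but they were captured separately, so they do not measure free Ifng RNA in the stimulated libraries, whose part in the shares of either class was not tested. Lta was detected after thinning in 48.2% and 47.7% of WT and in 46.9% and 57.7% of SDHA-KO cells, and Tnf in 15.1% and 17.1% against 16.2% and 22.8%, so that both overlapped. Within SDHA-KO, Lta was found in 58.3% and 69.3% of cells with a Trdc UMI and in 30.4% and 43.0% of those without. Cells with 3 of the 4 transcripts made up 5.83% and 5.65% of WT and 12% and 14.6% of SDHA-KO CD8 cells.

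**Figure D3:**
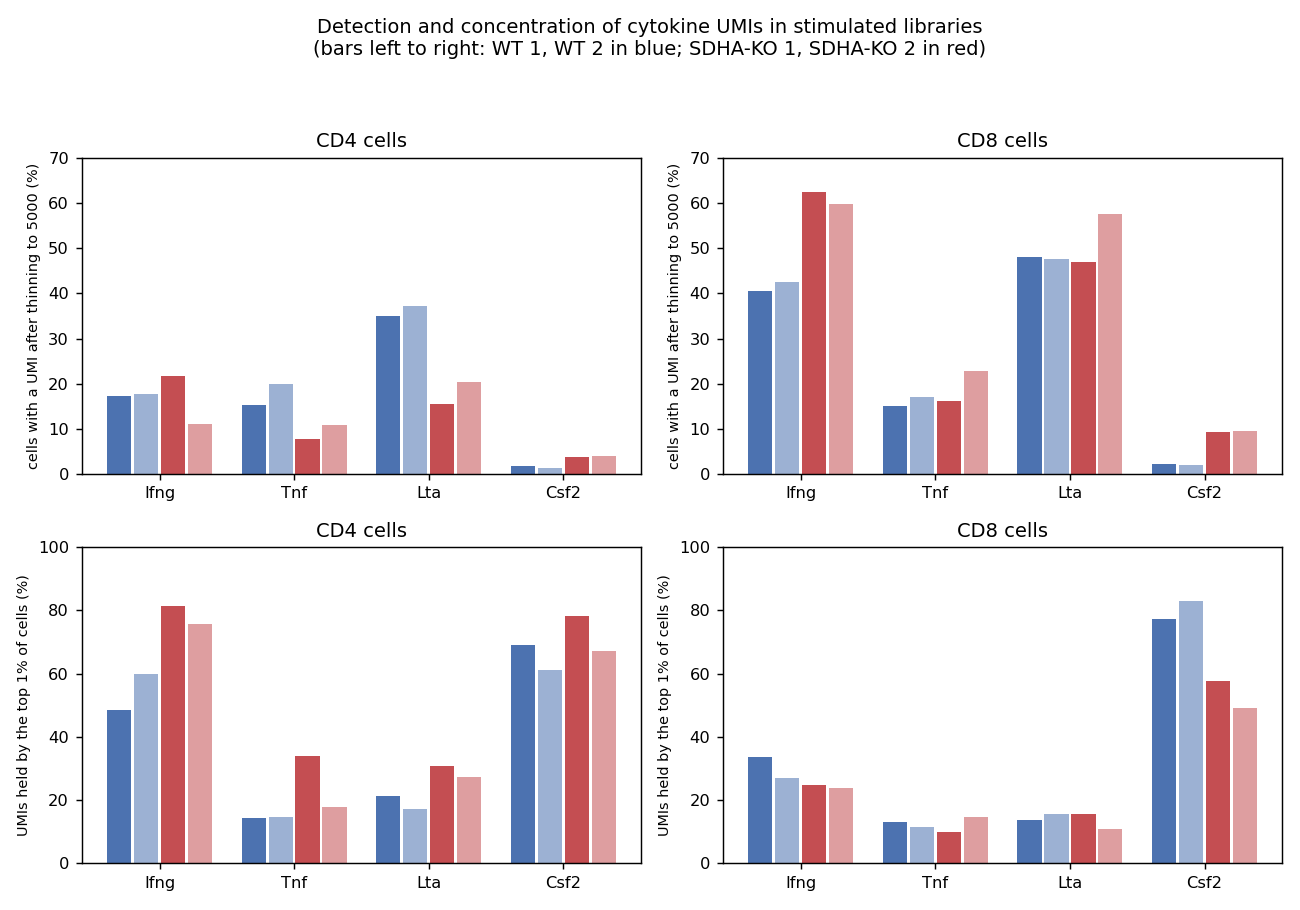
Percentage of stimulated cells with a UMI of each cytokine after thinning to 5000 UMIs (top) and percentage of its UMIs held by the top 1% of cells (bottom), per library, in CD4 cells (left) and CD8 cells (right); blue bars are WT 1 and 2, red bars SDHA-KO 1 and 2. Ifng in CD4 cells rises in concentration (81.5% and 75.7% in SDHA-KO) with overlapping detection, whereas in CD8 cells, Trdc cells included, detection rises.

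Subsets carry the names the authors gave to their clusters, with Tcm for central and Tem for effector memory. Because the clusters were made from the same cells, levels between subsets are a description. In the CD4 class, Tem7 had the highest Ifng in all 4 libraries, at 561 and 1130 raw CPM in WT (33 and 30 cells) and 5953 and 2969 in SDHA-KO (95 and 101 cells). It held 78.9% and 63.1% of the Ifng UMIs of SDHA-KO CD4 cells, against 31.5% and 21.1% in WT, and 887 of 1148 and 311 of 597 of the Csf2 UMIs in SDHA-KO, against 25 of 71 and 0 of 118 in WT. Lta in Tem7 stood at 624 and 494 raw CPM in WT and at 366 and 478 in SDHA-KO, the highest of the CD4 subsets in all 4 libraries. Tem7 had too few WT cells for the test, which required 50 cells of a subset in every library.

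SDHA-KO was compared with WT within the 5 CD4 subsets that met this number, on the 4 stimulated libraries. Lta was called lower in all 5, by 1.25 ± 0.17 in Tcm2, 0.96 ± 0.27 in Tcm4, 2.48 ± 0.23 in Tem1, 1.73 ± 0.17 in Tem2, and 1.63 ± 0.28 in Tem3 on the log2 scale (edgeR adjusted p from 2.62e-05 to 0.0462). All genes called were 12.9%, 15.1%, 27.8%, 24.0%, and 23.0% in that order. In Tem1, Lta fell from 127 and 106 CPM to 14.4 and 27.9 CPM. Tnf was called lower in Tem1 alone, at 21.5 and 34.2 CPM (WT) versus 5.01 and 8.01 CPM (SDHA-KO) (-2.16 ± 0.27, adjusted p = 0.00022), and its values in the other 4 lay between -0.95 and 0.25.

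Ifng was called higher in Tcm2 (1.95 ± 0.15, adjusted p = 3.75e-08 in edgeR), Tem2 (3.89 ± 1.00, adjusted p = 0.0249), and Tem3 (3.27 ± 0.78, adjusted p = 0.0219). In Tcm2 it was at 79.9 and 71.3 CPM (WT) versus 309 and 267 CPM (SDHA-KO). The replicates of SDHA-KO differed more in Tem2, at 18.3 and 273 CPM against 8.30 and 12.6 CPM in WT, and in Tem3, at 199 and 33.4 CPM against 9.41 and 12.9 CPM. Ifng was not called in Tcm4 (1.03 ± 0.69) and Tem1 (0.80 ± 0.39), where the genotypes overlapped. Csf2 was called higher in Tcm2 (2.82 ± 0.50), Tem2 (3.59 ± 0.56), and Tem3 (2.47 ± 0.38), and in Tem1, where 34 UMIs in SDHA-KO stood against 0 in WT, at least 6.82-fold higher with 3 UMIs taken over the group. It was not called in Tcm4 (1.62 ± 0.68, adjusted p = 0.147).

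Of the CD8 subsets, 2 met the number of cells. Their sums kept the cells with a Trdc UMI, and neither subset was fitted without them, so the part of these cells in the values below was not tested. In Tem2, 4 of 4 members were called higher in SDHA-KO, where 32.6% of genes were called. Ifng stood there at 378 and 780 CPM (WT) versus 6648 and 4291 CPM (SDHA-KO) (3.24 ± 0.35, adjusted p = 0.00106 in edgeR), Lta at 154 and 151 against 324 and 484 CPM (1.40 ± 0.17, adjusted p = 0.00156), Csf2 at 0.963 and 15.4 against 49.0 and 52.9 CPM (2.60 ± 0.69, adjusted p = 0.0262), and Tnf at 21.3 and 20.5 against 33.4 and 59.1 CPM (1.14 ± 0.24, adjusted p = 0.0119). The genotypes did not overlap for any of them, which is a description only, since the share of all genes without overlap was not counted. In Tcm4, 1 of 4 was called, with 5.63% of all genes called. Ifng was at 3941 and 4160 CPM (WT) versus 11749 and 9761 CPM (SDHA-KO) (1.41 ± 0.28, adjusted p = 0.0198), and Lta at 429 and 451 against 425 and 565 CPM (0.17 ± 0.21, adjusted p = 0.684). Among the smaller CD8 subsets, Tem6 went the other way, with 1895 and 6939 raw CPM of Ifng in WT (10 and 17 cells) and 1186 and 628 in SDHA-KO (43 and 44 cells), and with Lta at 200 and 693 against 72 and 97.5 raw CPM.

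**Figure D4:**
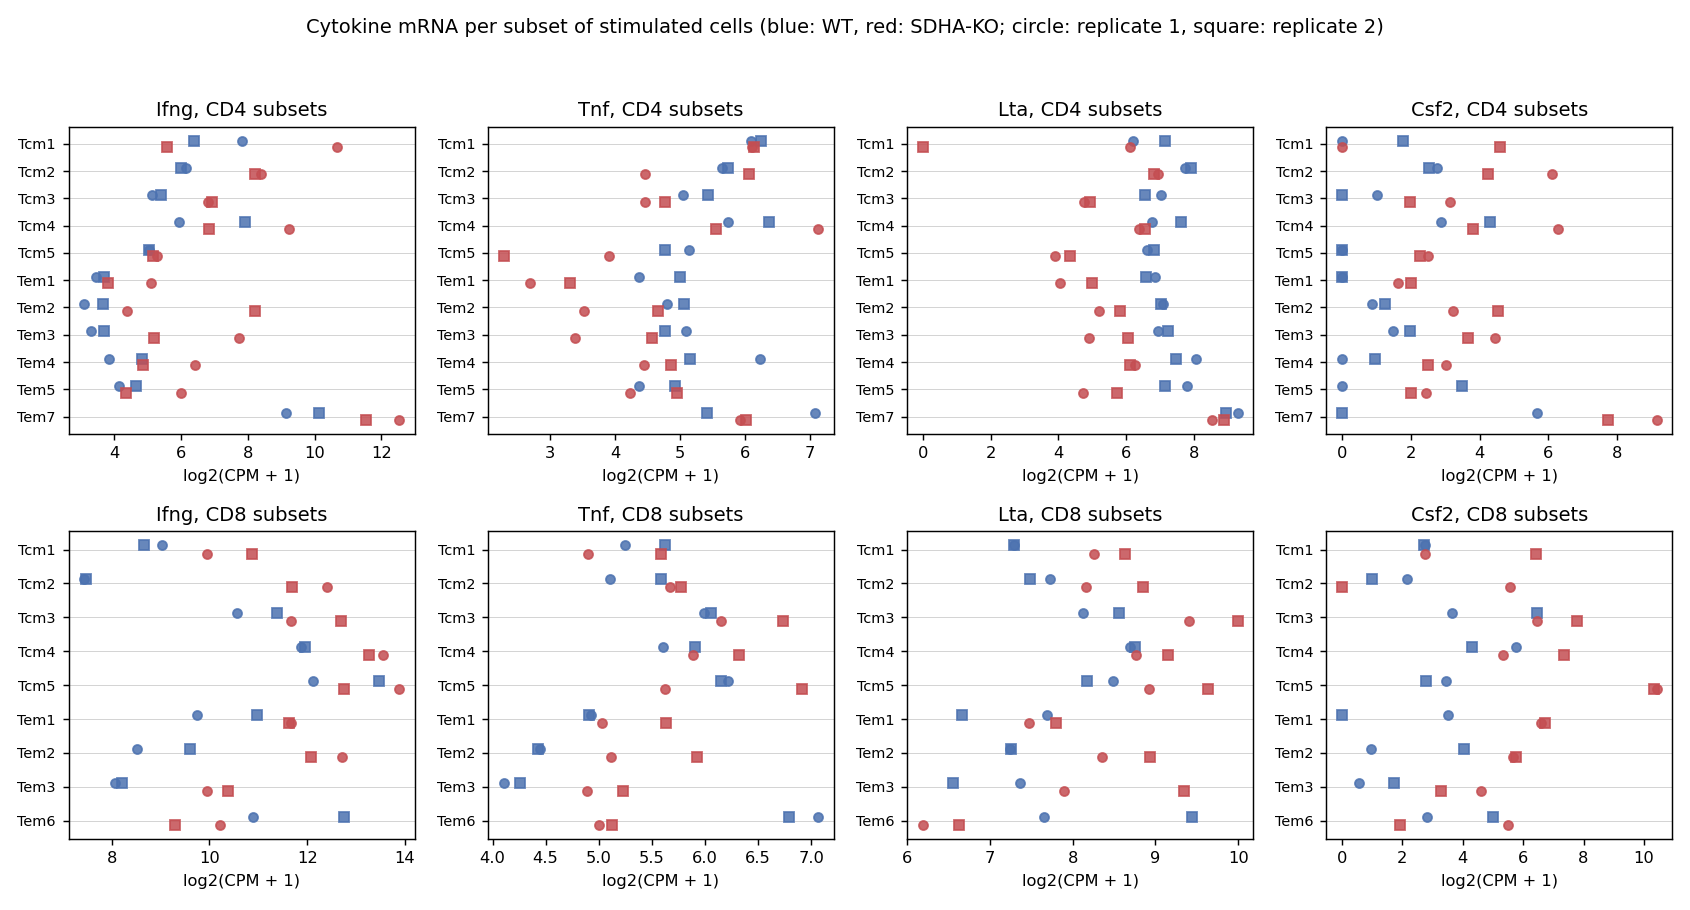
Level of each cytokine in the annotated subsets of stimulated cells, as log2(raw CPM + 1), with 1 point per library (blue WT, red SDHA-KO, circle replicate 1, square replicate 2). Tem7 is high for Ifng among CD4 subsets and for Csf2 in SDHA-KO, Lta is lower in SDHA-KO in every CD4 subset shown, and Tem6 of the CD8 class is lower in SDHA-KO for Ifng, Tnf, and Lta.

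Markers of γδ and NK cells moved with genotype in the CD4 sums too. The 7 γδ markers summed to 6.09 and 6.91 raw CPM in WT and 23.4 and 17.1 in SDHA-KO (Trdv4 at 0 in 1 library), and the 7 NK markers to 5.46 and 3.75 against 26.4 and 14.1, with Klra8 at 0 in all 4 and Ncr1 and Klrb1c at 0 in both WT libraries. The 6 B cell markers summed to 101 and 27.8 in WT and 75.0 and 63.9 in SDHA-KO, largely from Ighm, and the 7 myeloid markers to between 3.85 and 8.63, with Lyz2 and S100a8 at 0 in all 4. With cells that had a Trdc UMI left out, Lta (-1.46 ± 0.15), Tnf (-0.73 ± 0.13), Ifng (2.24 ± 0.44), and Csf2 (2.58 ± 0.44) were still called with the same signs in edgeR. A γδ cell without a captured Trdc UMI stays in these sums, so the full part of γδ cells was not measured. The part of NK, B cell, and myeloid transcripts was not tested. Median mitochondrial percentage also moved with genotype, at 15.9% and 14.9% in WT and 1.79% and 1.77% in SDHA-KO CD4 cells, and at 19.0% and 16.9% against 3.22% and 3.43% in CD8 cells. Among cells under 10% mitochondrial UMIs the differences in CD4 cells were 3.61 for Ifng, -0.71 for Tnf, -1.47 for Lta, and 2.90 for Csf2, and in CD8 cells 2.56, 0.86, 0.86, and 3.23, all called.

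The other genes of the pathway were read from lists in the order of their roles, with CD8 values over the whole class, Trdc cells included. Counts of called genes in each list stand against the 43.2% of all genes called in CD4 and the 50.4% called in CD8 cells, and no list was tested against these shares. Stimulated SDHA-KO CD8 cells with a Trdc UMI also differed from those without, with 16.5% of genes called. In the order of the 8 lists below, 4, 1, 2, 2, 0, 1, 0, and 0 genes were higher with a Trdc UMI. In the same order, 1, 0, 1, 2, 6, 1, 1, and 3 were lower. The part of this mix in the CD8 values was not tested. Of 10 type 1 cytokines and TNF-family ligands, the members included, 3 were higher and 3 lower in stimulated SDHA-KO CD4 cells. In CD8 cells 7 were higher and 1 lower. Their median log2 difference, members included, was -0.18 in CD4 cells (-0.000941 over all genes tested) and 0.78 in CD8 cells (-0.00964). Of the 6 genes other than the members, 1 was higher and 1 lower in CD4 cells, and 3 were higher and 1 lower in CD8 cells. Ltb, the membrane partner of lymphotoxin-α, was lower in both classes, at 381 and 360 CPM in WT against 151 and 185 CPM in SDHA-KO CD4 cells (-1.14 ± 0.11) and at 370 and 355 against 84.0 and 140 CPM in CD8 cells (-1.70 ± 0.17). Il3, the neighbour of Csf2, was called higher in CD8 cells (2.80 and 1.91 against 12 and 9.66 CPM, 2.20 ± 0.24, adjusted p = 7.55e-05 in edgeR) and not in CD4 cells (9.13 and 4.58 against 5.50 and 3.43 CPM, -0.62 ± 0.34, adjusted p = 0.166). The effect on Il3 differed between the classes by 2.79 ± 0.23 (adjusted p = 0.000494). Fasl, the death ligand, was higher in CD4 (0.98 ± 0.15) and CD8 cells (0.74 ± 0.20), and Tnfsf10, which encodes TRAIL, in CD8 cells (1.22 ± 0.11).

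Of 8 receptor genes of the members, 5 were tested in CD4 cells, of which 2 were higher, and 6 in CD8 cells, of which 0 were called in edgeR. The 2 were Ifngr1, at 27.8 and 29.2 CPM (WT) versus 59.9 and 42.3 CPM (SDHA-KO) in CD4 cells (0.84 ± 0.13, adjusted p = 0.000441), and Tnfrsf1b, which encodes TNF receptor 2 (0.48 ± 0.10, adjusted p = 0.00318). Of the 4 receptor chains for IL-12 and IL-18, cytokines that raise IFN-γ production, Il12rb2 was higher in CD4 cells (1.10 ± 0.14), and Il18rap (1.23 ± 0.22), Il18r1 (0.94 ± 0.16), and Il12rb1 (0.42 ± 0.08) were higher in CD8 cells. The effect on Il12rb2 differed between them by -1.16 ± 0.09 (adjusted p = 0.000395). The median of the members' receptors was 0.15 in CD4 and 0.16 in CD8 cells, and that of the IL-12 and IL-18 chains 0.59 and 0.68.

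Of 8 type 1 lineage factors, 6 were tested in each class. Eomes, which drives Ifng in cytotoxic cells, was higher in both, at 4.89 and 3.44 CPM (WT) versus 6.41 and 10.4 CPM (SDHA-KO) in CD4 cells (1.02 ± 0.24) and at 13.7 and 17.7 against 27.0 and 38.2 CPM in CD8 cells (1.05 ± 0.17). Tbx21, which encodes T-bet, was called in CD8 cells (0.53 ± 0.14, adjusted p = 0.0071 in edgeR) and not in CD4 cells (0.10 ± 0.13, adjusted p = 0.578). Stat4, the transducer of IL-12, and Zeb2 were higher in CD4 cells (0.41 ± 0.09 and 0.36 ± 0.10), and Runx3 was lower in CD4 (-0.37 ± 0.10) and CD8 cells (-0.46 ± 0.10). In all, 4 were higher and 1 lower in CD4 cells (median 0.36) and 2 were higher and 1 lower in CD8 cells (median 0.29). Of 10 factors induced by the T cell receptor, 2 were higher and 2 lower in CD4 cells (median 0.06) and 2 higher and 3 lower in CD8 cells (median -0.10), shares near those over all genes. Batf and Rela were the higher ones in both classes (1.10 and 0.85 in CD4, 1.43 and 0.62 in CD8 cells), Nfatc2 and Nfatc1 were lower in CD4 cells (-0.53 and -0.38), and Jun, Irf4, and Nfatc3 in CD8 cells (-0.58, -0.36, and -0.32).

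Of 7 genes of cytokine mRNA turnover, several of whose proteins bind AU-rich elements such as those shown above, 0 were higher and 2 lower in CD4 cells (median -0.08) and 1 higher and 2 lower in CD8 cells (median -0.10). Zfp36l1 was lower in both (-0.29 ± 0.10 and -0.34 ± 0.08), Zfp36l2 in CD4 cells (-0.41 ± 0.08), and Rc3h1, which encodes Roquin-1, in CD8 cells (-0.29 ± 0.08), where Elavl1, an mRNA-stabilizing factor, was higher (0.34 ± 0.07). Of 5 genes of IFN-γ signal and feedback, 1 was called in each class (medians 0.19 in CD4 and -0.14 in CD8 cells), namely Socs1, an inhibitor of the receptor's kinases, which was higher in CD4 (1.09 ± 0.19) and CD8 cells (0.63 ± 0.20). Of 6 genes of TNF processing and signal, Nfkbia (1.16 ± 0.09 and 0.68 ± 0.11) and Traf1 (1.05 ± 0.10 and 0.96 ± 0.12) were higher in both classes, Traf2 was higher in CD8 cells (0.55 ± 0.12), and Adam17, the protease that sheds TNF, was lower in both (-0.39 ± 0.08 and -0.38 ± 0.09).

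**Figure D5:**
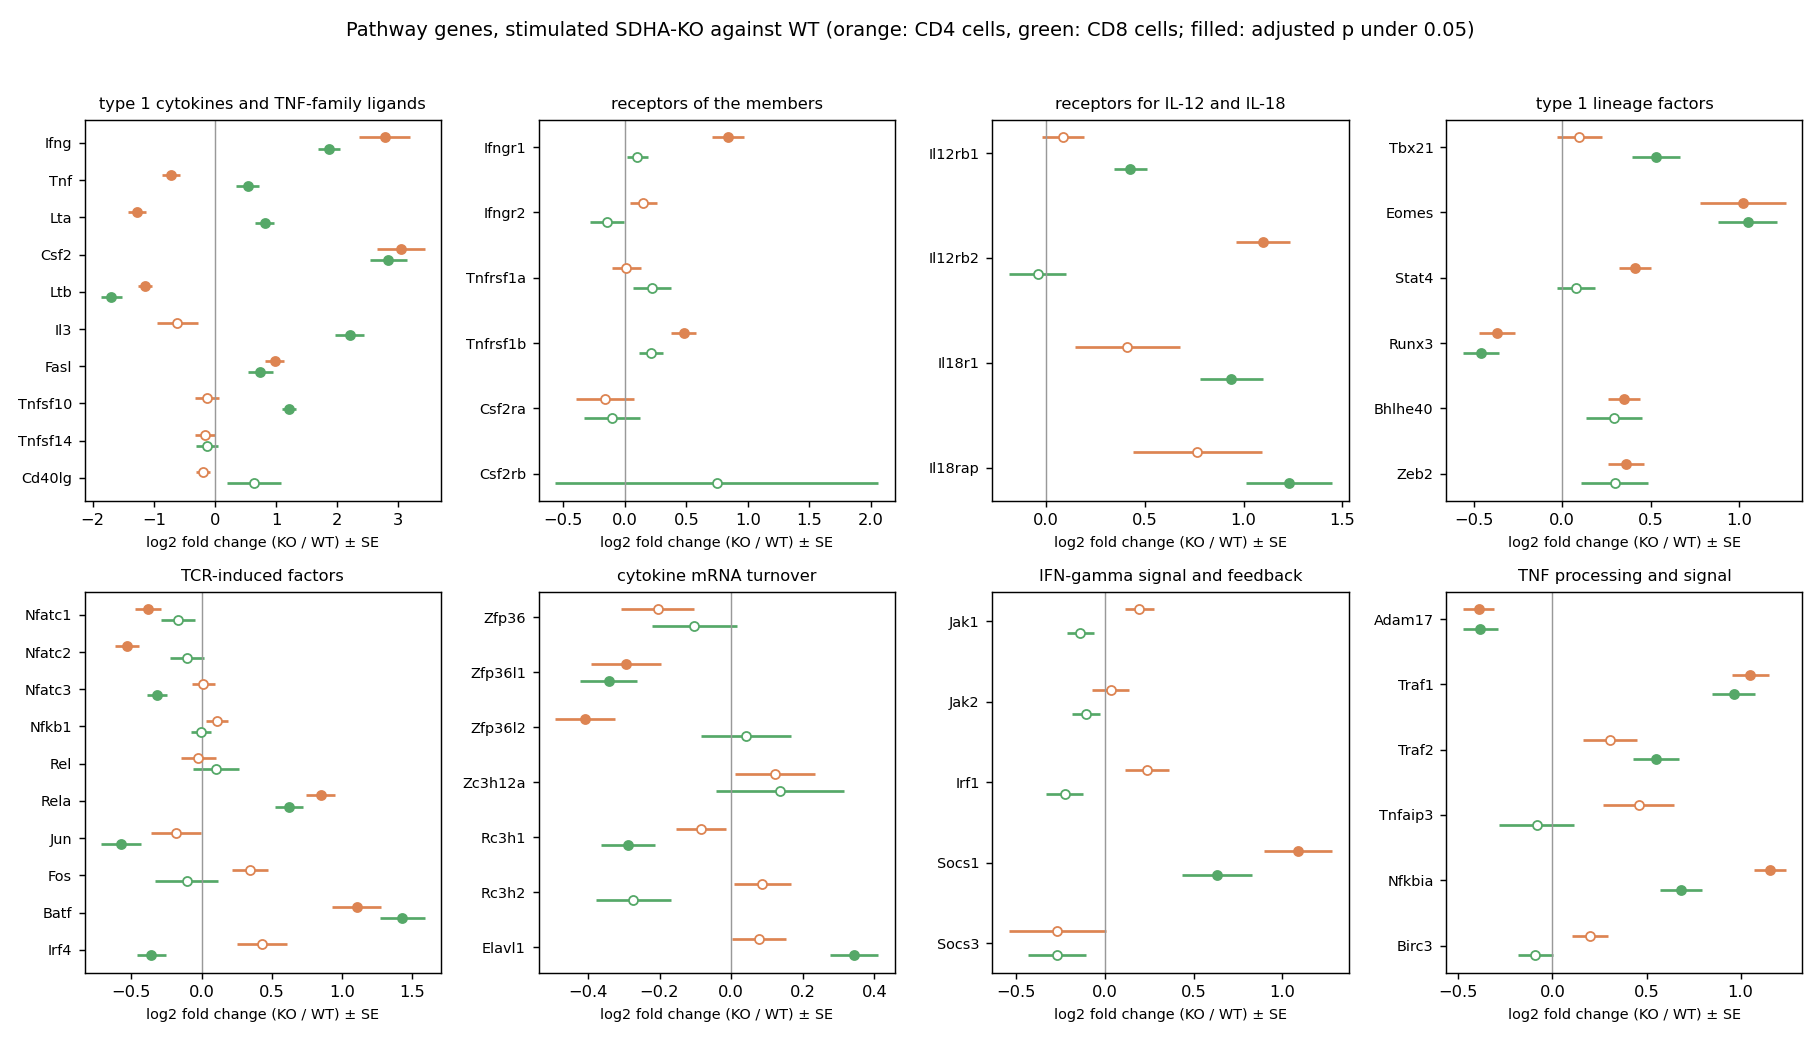
Log2 fold change ± SE of SDHA-KO over WT for the tested genes of 8 pathway lists in stimulated CD4 (orange) and CD8 (green) cells; filled points have an adjusted p under 0.05 in edgeR. Ltb is lower in both classes (-1.14 and -1.70), while Il3 and Tnfsf10 rise in CD8 cells and Il12rb2 and Ifngr1 in CD4 cells.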

How the data were processed

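Per the labels, the authors made 10x Genomics 3′ HT v3.1 libraries and used bcl2fastq, Cell Ranger (versions not given in the sources used here), and mm10. They filtered cells in Seurat and deposited raw UMI counts of 20170 genes in 12846 cells. The deposited cell table gives UMI and gene counts, the percent of mitochondrial UMIs, a log10 ratio of Cd4 to Cd8a, and the class and subset of each cell. Totals and percentages were checked against the counts. UMIs were summed per library and class, because cells of 1 library are not replicates. Genes kept by filterByExpr (minimum count 10, total 15) were fitted with edgeR 4.0.16 (TMM, glmQLFit, R 4.3.3) over 4 groups and 8 libraries. Classes, and cells with and without Trdc UMIs, were compared among stimulated libraries, with a block for the library, and subsets in separate fits. DESeq2 1.42.0 and limma 3.58.1 were alternatives. Limma used means of log values per cell. Thinning used seed 47, with Python 3.11.15, numpy 2.4.6, scipy 1.17.1, and pandas 2.3.3. Plots used matplotlib 3.10.9. No doublet caller was run. Intervals cover counting error only.

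The members, lists, and subsets to test were chosen with earlier results of these data known. Named were the members and, per list, up to 3 called genes each way with the largest change. Comparisons share libraries. Replicate numbers were not taken as pairs, since the labels give no shared origin and same-numbered deviations correlated from -0.0698 to 0.0511. Replicates differed by more than counting error (chi-square per degree of freedom 1.53 to 15.1). Protein, flow cytometry, and flux data were not analysed here. Some genes of the lists are not reported here.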

Additional observations from a re-analysis of the deposited data

Results flagged for a closer look

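The change from WT to SDHA-KO in stimulated cells differed between CD8 and CD4 cells, by the test of the difference itself. The values were 2.07 on the log2 scale for Lta, 1.23 for Tnf, and -0.84 for Ifng (adjusted p = 1.35e-05, 0.000471, and 0.0316 in edgeR). Once cells with a Trdc UMI were left out, the rise of Lta and Tnf in CD8 cells was not called. The Ifng value turned to 0.37 without the top 1% of cells. In CD4 cells the change also differed between the stimulated and unstimulated states, for Ifng by 3.97 (adjusted p = 0.00804 in edgeR) and for Lta by -1.43 (adjusted p = 0.00991). The Ifng value fell to 1.82 without unstimulated WT replicate 2, the library with the single high cell. Without the top 1% of cells it was 1.27 and not called. The Lta value ranged from -1.69 to -1.14 with libraries left out.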

How the results depend on the processing

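Of 36 differences recomputed under 544 alternatives, 18 kept their sign and their side of the threshold under all of theirs, and 484 alternatives left the result as it was. Of the rest, 39 lost a call, 3 gained one, and 18 turned the sign. Ifng and Csf2 in stimulated CD8 cells and Lta in stimulated CD4 cells were called under every alternative tried. Values are log2 differences with edgeR's adjusted p unless another tool is named. Those of limma are differences between means of log values per cell. They lie on another scale, so their size cannot be set against that of the other values.

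For SDHA-KO against WT in stimulated CD4 cells, Tcm subsets alone gave 1.30 for Ifng (adjusted p = 0.0608) and -0.0936 for Tnf, limma on mean log values gave 0.13 for Ifng (adjusted p = 0.151), and DESeq2 gave 3.07 for Csf2 (adjusted p = 0.0506). In stimulated CD8 cells, Tnf lost its call without composition normalization (0.47), without Trdc cells (0.32), in the strict class (0.35), after thinning (0.18), in Tcm subsets (0.35), with stimulated libraries fitted alone (0.54), and in DESeq2 (0.55), and ranged from 0.18 to 0.81 with libraries left out. Lta lost it without Trdc cells (0.11), in the strict class (0.0530), and in DESeq2 (0.82).

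In unstimulated CD4 cells, Ifng was -1.21 and called with no filter, and turned to 0.25 after thinning, 0.38 without the top 1% of cells, and 0.00491 in limma, with a range from -1.97 to 0.97 with libraries left out. Lta there ranged from -0.0809 to 0.40. In unstimulated CD8 cells, Ifng turned to -2.02 without Trdc cells and -1.84 in the strict class, and Tnf ranged from -0.65 to 0.22 with libraries left out.

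For stimulation of WT CD4 cells, Ifng lost its call in the strict class (0.93), under 10% mitochondrial UMIs (0.67), and in DESeq2 (1.55), with a range from 0.76 to 3.71 with libraries left out. Tnf ranged from 0.42 to 0.56, and Csf2 from 4.40 to 9.13 and was 0.0317 in limma, with calls lost for both. In WT CD8 cells, Tnf lost its call under 10% mitochondrial UMIs (0.65) and without 1 library, ranging from 0.93 to 1.37. In SDHA-KO CD4 cells, Tnf was 0.0928 and called in limma, and ranged from -0.0905 to 0.40. Without composition scaling, the median of all genes shifted to between 0.26 and 0.57 in these comparisons, and the members kept their calls.

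For the difference between classes, Ifng was -0.60 without Trdc cells, -0.52 in the strict class, -0.97 under 10% mitochondrial UMIs, and 0.37 without the top 1% of cells, and ranged from -1.24 to -0.44. Csf2 turned to 0.44, 0.66, 0.41, and 1.61 under the same settings, and ranged from -0.92 to 0.70, called at either end. The difference between states in CD4 cells was 1.27 for Ifng without the top 1% of cells, and ranged from 1.82 to 4.77 for Ifng and from -1.69 to -1.14 for Lta. Adjusted p over the alternatives went from 0.0264 to 1 for Ifng in unstimulated CD4 cells, from 0.000415 to 0.454 for Tnf in stimulated CD8 cells, from 2.57e-05 to 0.488 for the class difference of Ifng, from 0.0016 to 0.417 for the state difference of Ifng, and from 0.000385 to 0.0632 for that of Lta. The causes were not tested. Leaving out 1 library of a group assumes that the other varies like the rest.

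A fit with the replicate number as a block changed no call in 30 of 30 results, with Tnf in stimulated CD8 cells at 0.51 (adjusted p = 0.00644). The number pairs no samples by label. Tcm and Tem subsets alone, and the alternatives for the difference between states, were chosen after seeing the data. Fitting 1 state alone gave no value for members too low at rest. Thinned shares rested on 5000 UMIs, and at 2000 UMIs the mean share of CD4 cells with an Ifng UMI was 8.52% in WT and 10.4% in SDHA-KO, against 17.6% and 16.4% at 5000.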

Other observations

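Detection of the members in the same cell was compared with the product of their separate shares, after thinning to 5000 UMIs. In stimulated CD4 cells, Tnf and Lta occurred together 1.19 and 1.23 times as often as the product in WT and 1.94 and 2.03 times in SDHA-KO, in 54, 86, 25, and 53 cells. Ifng and Lta gave ratios of 1.02 and 1.27 in WT and of 1.37 and 1.68 in SDHA-KO CD4 cells. The CD4 ratios of both pairs were higher in each SDHA-KO library than in each WT library. In CD8 cells the ratio for Ifng and Lta was 1.12 and 1.13 in WT and 1.22 and 1.21 in SDHA-KO, and that for Tnf and Lta 1.36 and 1.31 against 1.40 and 1.13. These ratios come from 2 libraries a group and carry no test.

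Over the 16 sums of library and class, as log2(CPM + 1) among 5725 genes whose mean was 20 CPM or more, the genes most like each member by Pearson's r were Surf4 (0.96), Cse1l, Dnajb11, Clptm1, and Batf3 for Ifng. They were Rcc2 (0.99), Pdia6, Tmem97, Bri3bp, and Cyb5b for Lta, and Sh2d2a (0.99), Serpinb9, Eif3b, Tarbp2, and Clptm1 for Csf2. For Tnf they were Ube2k (0.92), Srsf10, Sap18, 3110082I17Rik, and Trabd. Between members, r was highest for Ifng and Csf2 (0.94) and lowest for Tnf and Csf2 (0.63). The sums share libraries, and stimulation moves most of them, so these values only describe the order of levels.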
